A study of Mus musculus with 6 samples.

Results

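The sites described are the limb pSmad1/5 peaks that overlap a limb Smad4 peak by at least 1 bp, here called shared sites. They numbered 1134 of 23389 limb pSmad1/5 peaks, and on the Smad4 side 1140 of 29756 limb Smad4 peaks were shared. The series holds 123182 peaks in all. They were set against the 22255 pSmad1/5 peaks and the 28616 Smad4 peaks without such an overlap. The peaks come from chromatin immunoprecipitation followed by sequencing of limb tissue from wild-type CD1 mice at stage E13.5 (embryonic days). The antibodies were against pSmad1/5 (Cell Signaling Technology #11971) and Smad4 (Abcam ab3219). There was 1 library for each antibody, so no difference below has a replicate check, and no p-value was computed. The intervals given are exact (Clopper-Pearson) 95% binomial intervals over peaks, genes or promoter windows, and they cover counting error only. Lists for the same antibodies in molar tooth germ of the same age, also with 1 library each, served as a further readout, and the 2 input samples were not analysed here. Limb tissue of this age holds cartilage, mesenchyme, skin, muscle, vessels and nerve together, and the lists do not separate them.

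Bone morphogenetic proteins (BMPs) are secreted ligands whose receptors phosphorylate Smad1 and Smad5. The phosphorylated proteins pair with Smad4, the partner they have in common with the TGF-beta branch, and bind DNA near target genes. GC-rich elements are known as sites of Smad1 and Smad5, and the shorter GTCT and CAGAC elements as sites of Smad4. In the limb this pathway is known for its roles in digit patterning, cartilage condensation, the apical ridge and the death of interdigital tissue.

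Shared sites were concentrated at gene starts, so 6 promoters in which both summits lay are shown before the values. Each line gives 280 bases from RefSeq on GRCm38.p6 (the coordinates of mm10), from 250 bases before the annotated start to 30 bases after it, written 5′ to 3′ on the strand of the gene. Capitals mark the bases covered by both the pSmad1/5 peak and the Smad4 peak. Asxl2, a Polycomb-associated gene, was the only gene of the 25 gene lists used below with both summits in this window (chr12:3426607-3426886, plus strand).
Asxl2: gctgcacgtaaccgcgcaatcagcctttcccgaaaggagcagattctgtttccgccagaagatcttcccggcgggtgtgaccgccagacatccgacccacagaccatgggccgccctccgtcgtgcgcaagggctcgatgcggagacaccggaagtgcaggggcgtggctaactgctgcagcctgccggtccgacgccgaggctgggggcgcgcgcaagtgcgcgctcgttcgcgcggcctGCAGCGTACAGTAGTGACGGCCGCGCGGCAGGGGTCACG
The site upstream of the annexin gene Anxa9 (chr3:95315151-95315430, minus strand) ranked best of these promoters by the worse of its ranks in both lists, and its capitals hold GGCGCC.
Anxa9: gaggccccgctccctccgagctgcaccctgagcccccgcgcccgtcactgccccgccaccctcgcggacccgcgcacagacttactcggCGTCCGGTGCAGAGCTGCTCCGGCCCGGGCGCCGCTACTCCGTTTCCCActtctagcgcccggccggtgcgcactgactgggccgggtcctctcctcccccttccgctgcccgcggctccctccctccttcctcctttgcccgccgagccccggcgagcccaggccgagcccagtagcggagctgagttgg
At Disc1, a scaffold gene, the covered bases reach the start itself (chr8:125053945-125054224, plus strand).
Disc1: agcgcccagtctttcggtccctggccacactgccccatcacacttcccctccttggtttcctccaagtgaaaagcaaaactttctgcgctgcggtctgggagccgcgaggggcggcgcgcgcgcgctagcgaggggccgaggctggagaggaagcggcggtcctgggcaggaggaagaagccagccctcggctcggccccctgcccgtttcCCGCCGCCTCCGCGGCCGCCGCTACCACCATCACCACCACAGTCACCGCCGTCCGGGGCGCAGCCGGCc
At Carmil3, a regulator of actin capping, the covered bases hold GGCGCC (chr14:55490819-55491098, plus strand).
Carmil3: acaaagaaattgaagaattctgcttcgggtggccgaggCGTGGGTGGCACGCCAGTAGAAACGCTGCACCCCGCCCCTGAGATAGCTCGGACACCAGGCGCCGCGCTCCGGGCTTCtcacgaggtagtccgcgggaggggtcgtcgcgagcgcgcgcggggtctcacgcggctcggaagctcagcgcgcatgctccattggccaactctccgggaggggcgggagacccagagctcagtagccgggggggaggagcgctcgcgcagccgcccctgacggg
Rpl7a, a ribosomal protein gene, faces Med22 on the other strand, and its covered bases hold both GGCGCC and GGAGCC (chr2:26910557-26910836, plus strand).
Rpl7a: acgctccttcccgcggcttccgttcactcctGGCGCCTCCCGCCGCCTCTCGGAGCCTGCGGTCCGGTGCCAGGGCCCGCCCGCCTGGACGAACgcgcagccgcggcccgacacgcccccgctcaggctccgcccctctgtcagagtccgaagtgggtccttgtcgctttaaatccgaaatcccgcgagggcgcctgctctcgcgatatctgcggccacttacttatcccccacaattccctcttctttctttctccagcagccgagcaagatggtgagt
Rmnd5b, a ubiquitin ligase gene, was chosen after its values were seen (chr11:51635867-51636146, minus strand). It holds the only GTCTAGAC found in a promoter with the summits of an overlapping pair, outside the capitals.
Rmnd5b: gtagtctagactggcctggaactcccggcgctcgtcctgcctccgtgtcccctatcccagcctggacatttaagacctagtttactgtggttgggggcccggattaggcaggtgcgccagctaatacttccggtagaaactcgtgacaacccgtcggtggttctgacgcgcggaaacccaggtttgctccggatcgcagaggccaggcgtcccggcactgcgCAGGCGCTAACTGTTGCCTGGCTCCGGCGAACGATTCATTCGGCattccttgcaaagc

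The first comparison asks how closely the peaks of both antibodies coincide. By the 1 bp rule 4.85% of pSmad1/5 peaks (4.58 to 5.13%) and 3.83% of Smad4 peaks (3.62 to 4.06%) were shared. They formed 1149 pairs, since 15 pSmad1/5 peaks met 2 or more Smad4 peaks. Within a pair the overlap had a median of 45 bp (quartiles 23 and 57 bp, highest 225 bp), and the summits, the highest points of the peaks as the authors give them, lay a median of 35 bp apart (quartiles 17 and 63 bp). In 808 pairs (70.3%) the overlap covered at least 50% of the shorter peak, and in 1045 pairs (90.9%) the summits lay within 100 bp. Median peak width was 56 bp for pSmad1/5 and 58 bp for Smad4, so the overlap rule itself brings the summits of a pair close. In 360 pairs (31.3%) the shorter peak was wholly covered. By contrast, 57 pairs overlapped by 5 bp or less and 9 by a single base, among them sites at Kcns1, Fbln5 and Nop9. On the other side of the rule, 7 pairs touched without overlap, at H2al2a, Igfbp7, Aacs, Junb, Them6, Elfn2 and Map3k4. Among pSmad1/5 peaks without overlap, 836 (3.76%) had a Smad4 peak within 100 bp, 2982 (13.4%) within 1 kb and 7287 (32.7%) within 5 kb.

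Shared peaks were wider and scored higher than the others. The enrichment score and the p-value of each peak are the authors' own and serve only to describe and rank peaks within a list. Shared pSmad1/5 peaks had a median width of 68 bp (quartiles 52 and 107 bp) against 55 bp (49 and 69 bp) without Smad4. On the Smad4 side the medians were 74 bp and 57 bp. The median score was 3.69 for shared and 3.43 for other pSmad1/5 peaks, and 3.73 and 3.52 for Smad4. The highest scores of both lists, 28.8 for pSmad1/5 and 28.7 for Smad4, belonged to peaks that were not shared. The share of pSmad1/5 peaks that met a Smad4 peak was 3.04% in the lowest decile by score and 10.7% in the highest, and 2.91% and 14.5% in the lowest and highest deciles by width. For Smad4 peaks these shares were 2.72% and 6.79% by score and 1.85% and 9.81% by width. A wider peak covers more bases and can meet another peak more easily, and the part of width in the overlap was not tested.

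**Figure D1:**
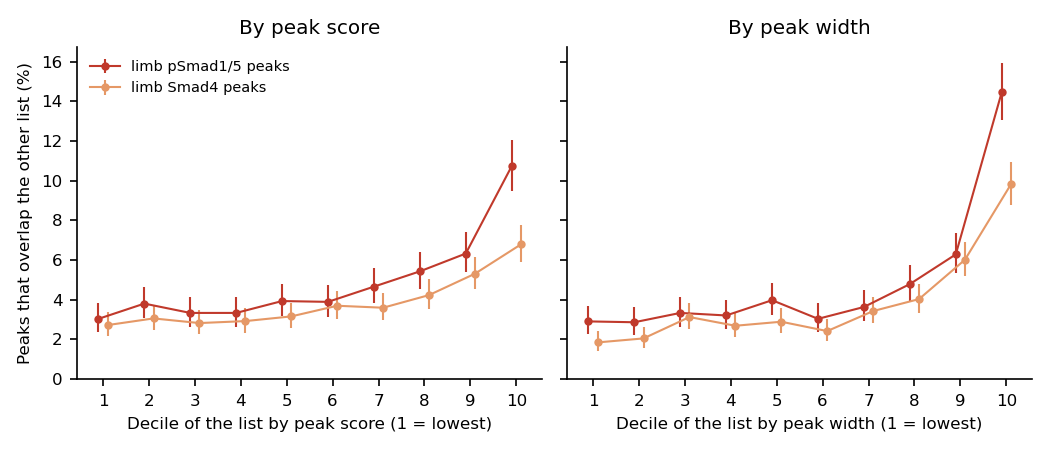
Share of limb peaks that overlap a peak of the other antibody (vertical axis, %) in deciles of each list by score (left) and by width (right), with exact 95% intervals. The rise is in the upper deciles, to 10.7% by score and 14.5% by width for pSmad1/5 peaks.

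The second comparison asks where shared sites lie relative to genes. Shared sites were concentrated at gene starts. Of the 1134 shared summits, 444 (39.2%, 36.3 to 42.1%) lay within 1 kb of either end of a protein-coding gene, against 3021 (13.6%) of pSmad1/5 peaks without Smad4 and 4905 (17.1%) of Smad4 peaks without pSmad1/5. With start sites from the RefSeq promoter table, which gave a start for 79.9% of the 21896 protein-coding genes (starts on chromosome 18 were not analysed here), 360 of 1101 shared summits (32.7%, 29.9 to 35.6%) lay within 1 kb of a start. Among other pSmad1/5 peaks the share was 10.1% and among other Smad4 peaks 13.3%. Within 200 bp of a start the shares were 17.7%, 4.18% and 5.67% in the same order. The far ends of genes showed no such difference. Summits within 1 kb of a far end and of no start made up 2.63% (1.77 to 3.76%) of shared sites, 2.56% of other pSmad1/5 peaks and 2.82% of other Smad4 peaks.

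Around the start, shared summits were most frequent in the first 200 bp of the gene, with 10.6% of all shared sites, and in the 200 bp before it, with 6.99%. Other pSmad1/5 peaks had 2.41% and 1.76% in these bins. The side of the start did not set shared sites apart. Of summits within 1 kb of a start, 33.1% of shared sites (28.2 to 38.2%), 35.9% of other pSmad1/5 peaks and 34.6% of other Smad4 peaks lay upstream. Starts on both strands within 1 kb were found at 20.6% (16.5 to 25.1%), 16.9% and 16.5% of these summits, so the intervals of shared and other pSmad1/5 peaks overlapped (15.3 to 18.5% for the latter).

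**Figure D2:**
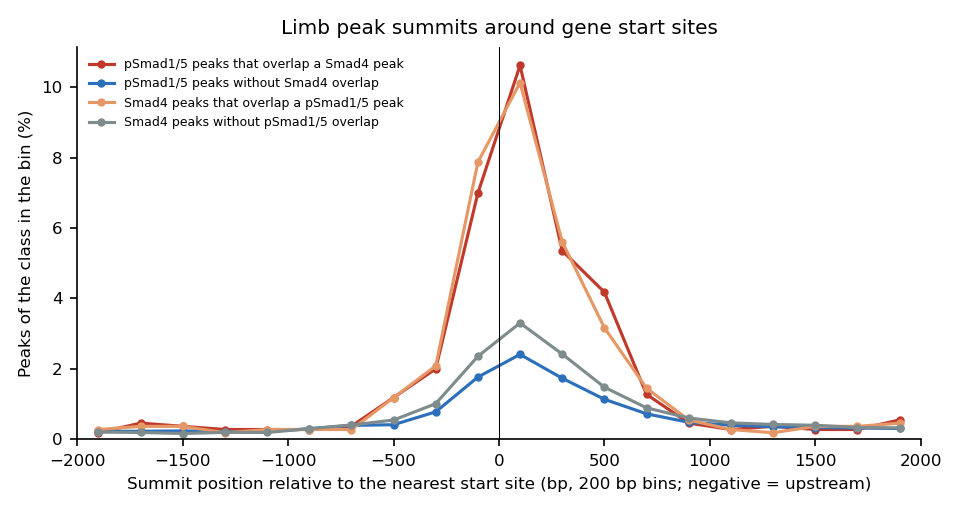
Position of limb peak summits relative to the nearest annotated start (horizontal axis, bp in 200 bp bins, negative upstream) as the share of each class of peaks (vertical axis, %). Both sides of the shared pairs reach over 10% in the first bin after the start, and the other pSmad1/5 peaks 2.41%.

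Away from gene ends, 470 shared sites (41.4%) lay inside a gene and 220 (19.4%) outside genes, against 51.2% and 35.3% of other pSmad1/5 peaks. Sites more than 50 kb from any gene made up 5.73% of shared sites and 14.1% of other pSmad1/5 peaks. Counted the other way, 17.8% of pSmad1/5 peaks within 200 bp of a start met a Smad4 peak, 4.99% of those at a far end, 3.97% of those inside genes, 2.77% of those outside genes and 2.08% of those more than 50 kb away. Median pSmad1/5 peak width in these settings was 66, 57, 55, 55 and 55 bp, so the peaks at starts were also the widest. When only peaks of at least the median shared width were kept, 51.0% of shared and 20.9% of other pSmad1/5 peaks lay near a gene end. With a score of at least 4 in both lists the shares were 48.2% and 22.5%. Shared sites also lay in regions with more genes, with a median of 3 protein-coding genes within 100 kb against 2. The part of gene density was not tested.

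By gene, 2382 starts (13.6% of 17491) had a pSmad1/5 summit within 1 kb, 3509 (20.1%) a Smad4 summit, 1009 (5.77%) both and 382 (2.18%) a shared site. A Smad4 summit was found at 42.4% of the starts with a pSmad1/5 summit and at 16.5% of the others. Among the starts with both, 381 (37.8%) had a shared site, so most genes with both antibodies at the start had them on different bases. Across chromosomes the share of pSmad1/5 peaks that met Smad4 ran from 2.65% on chromosome 9 to 6.78% on chromosome 10 among the autosomes. It was 3.34% on X, where scores in the lists go lower, and 7 of 42 peaks (16.7%, 6.97 to 31.4%) on Y. Those 7 all lay in 2 chains near the predicted gene Gm52481 near the end of that chromosome, and how well reads map there was not tested.

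Promoters with both summits were rich in GC. The 21237 promoter windows searched run from 250 bp before to 50 bp after a start. Of these, 127 windows of 120 genes held the summits of an overlapping pair. Some pairs lay in several of these windows, as at Carmil3 and at Rpl7a with Med22. The intervals over windows treat such windows as separate. Their median GC content was 68.0% (quartiles 63.8 and 71.7%), with a median of 30 CG dinucleotides. Windows with both summits on different bases (60) had 67.5% GC, windows with pSmad1/5 alone (597) 65.0%, windows with Smad4 alone (1003) 65.3% and windows with neither (19450) 55.3%. In quintiles of all windows by GC content, overlapping pairs were found in 0, 0.0471, 0.212, 0.848 and 1.88% of windows from the lowest to the highest quintile. Single antibodies rose alongside, to 8.55% of windows with a pSmad1/5 summit and 12.9% with a Smad4 summit in the highest quintile. The part of GC content in the recovery or mapping of fragments was not tested.

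Known Smad elements were then counted on both strands of these windows. GGCGCC, the GC-rich element of Smad1 and Smad5, was found in 38 of 127 windows with an overlapping pair (29.9%, 22.1 to 38.7%), against 14.3% of windows with neither antibody and 15.3% of all windows. Among windows of at least 63.8% GC, a limit chosen after the data were seen, the shares were 33.7% (24.3 to 44.1%) and 36.4%. The related GGAGCC was found in 55.1% of windows with a pair and 33.5% with neither (34.9% of all), and in 62.1% and 56.2% of GC-rich windows. Above this GC limit the shares were closer than in all windows, but the windows were not matched for GC content. The part of GC content in these shares was not tested. GTCT was found in 86.6% of windows with a pair, 86.99% with neither and 86.8% of all, and CAGAC, which overlaps GTCT when read on the other strand as GTCTG, in 44.1%, 48.6% and 48.4%. Among GC-rich windows GTCT was found in 83.2% (74.1 to 90.1%) with a pair and 77.1% with neither. There CAGAC was found in 45.3% (35.0 to 55.8%) and 41.8%, so the order of its shares turned. GTCTAGAC, which holds GTCT on both strands, was found in 1 of 127 windows (0.787%), in the Rmnd5b promoter printed above, and in 0.226% of all windows. GGCGCC followed after 5 bases by GTCT was found in none of the 127, which allows a share of up to 2.86%, and in 0.0848% of all windows. Within the bases covered by both peaks, GGCGCC was found in 11 of 127 windows, as in Anxa9, Carmil3 and Rpl7a above, GGAGCC in 15, GTCT in 20 and CAGAC in 9.

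**Figure D3:**
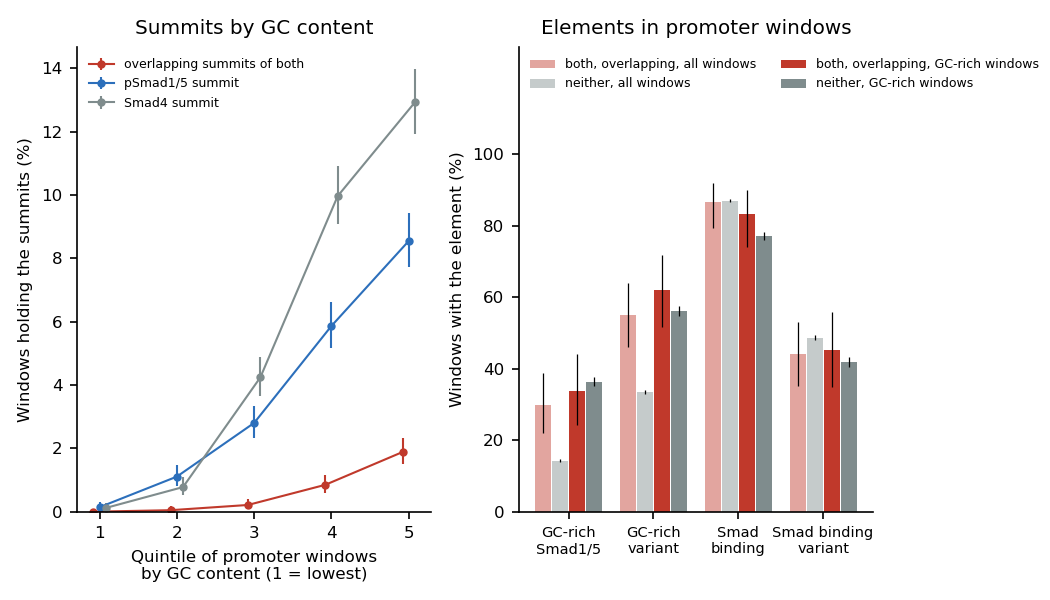
Left, share of promoter windows (vertical axis, %) that hold a pSmad1/5 summit, a Smad4 summit or an overlapping pair, in quintiles by GC content. Right, share of windows with each of 4 elements (GGCGCC with its variant, then GTCT with its variant) for windows with an overlapping pair and with neither antibody, in all windows (pale) and GC-rich windows (dark); lines are exact 95% intervals, and GGCGCC stands at 29.9 and 14.3% in all windows but at 33.7 and 36.4% in GC-rich windows.

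The third comparison asks which genes lie at shared sites. A gene was counted when a shared pSmad1/5 summit lay inside it or within 10 kb of either end. This held for 1330 of 21896 protein-coding genes (6.07%), while 47.9% had a pSmad1/5 peak at that distance and 52.3% a Smad4 peak. Of the 586 genes in 25 lists of signalling, patterning and cell type genes, 61 (10.4%, 8.06 to 13.2%) had a shared site, at 66 distinct sites. These lists also held longer genes, with a median length of 24179 bp against 17149 bp, and more genes with both antibodies, 294 of 586 against 7854 of 21896. Among genes with both, 20.7% of list genes and 16.9% of all had a shared site. With a score of at least 4 in both lists, 7 list genes (1.19%) and 1.17% of all genes had a shared site. At that score the shares of list genes and of all genes were close, but with only 7 list genes. How the difference depends on score was not tested.

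In the BMP pathway itself the shares ran from near the 6.07% of all genes, for ligands and receptors, to 16%, for Smad genes and their regulators, and the interval of each of these short lists includes 6.07%. Among BMP ligands 1 of 17 genes had a shared site, Bmp4, a ligand of limb mesenchyme and apical ridge, although 7 of the 17 had both antibodies. The Bmp4 site lay inside the gene, 87 bp from its start, with a pSmad1/5 score of 3.53 and a Smad4 score of 3.43. Among BMP and TGF-beta receptors 1 of 16 had a shared site, the co-receptor gene Tgfbr3, 84 bp inside a gene end. Of 25 Smad genes and regulators, 4 had a shared site. Smad1, which encodes the signal transducer itself, had one 323 bp after its start, with scores of 3.99 and 4.88. Zfp423, a zinc finger partner of Smads, had 3 inside the gene. The one with the highest pSmad1/5 score had scores of 5.79 and 4.05, and its pSmad1/5 p-value from the authors' peak caller was 0.000413. Hivep3 had a site deep inside the gene, and the site counted for Xiap lay 4593 bp outside Xiap. Of 22 antagonists and modulators, 3 had a shared site. Kcp and the X-linked antagonist Chrdl1 had it inside the gene. The site counted for Dand5 lay 4264 bp outside that gene.

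Direct BMP targets had shared sites in 4 of 29 genes, and 14 of the 29 had both antibodies. Sox9, the master regulator of cartilage, had a site 2573 bp inside the gene with a pSmad1/5 score of 3.03 and a Smad4 score of 6.29. Gata2 had a site 909 bp inside a gene end (3.34 and 3.93). Klf10, an early response gene, had one 697 bp inside a gene end (3.22 and 5.81). Dlx3, a homeobox gene of ridge and skin, had 2, inside the gene (3.14 and 3.09) and 9194 bp outside it towards Dlx4 (3.24 and 4.42). None of the 4 Id genes, the textbook targets of the pathway, had a shared site, and none had both antibodies.

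Hedgehog genes had the highest share of any list, 6 of 19 (31.6%, 12.6 to 56.6%) at 7 sites, and 16 of the 19 had both antibodies. The list is short and was read among 25, so its place at the top was not tested. Smo, the membrane transducer of hedgehog signalling, held the second-best ranked shared site of the genome, at chr6:29748835-29748889. That site had a pSmad1/5 score of 12.8 and a Smad4 score of 11.3, with both summits on the same base, 13360 bp after the start. The rank used scores alone. The p-values from the authors' peak caller were 0.00041 for its pSmad1/5 peak and 7.27e-06 for its Smad4 peak. The median of pSmad1/5 peaks without Smad4 was lower than the former, at 7.75e-05. A second shared site lay close to it in the same gene (4.19 and 6.23). The ligand gene Ihh, which paces cartilage growth, had a site 752 bp after its start (3.50 and 5.00), and the ligand gene Dhh had one 4432 bp after its start (6.52 and 4.88). The transcription factor gene Gli2 had a site 78 bp after an annotated start (3.14 and 3.30), and the receptor gene Ptch1 one 767 bp inside a gene end (3.79 and 3.25). The site counted for Gli1 lay inside Arhgap9, 6934 bp from Gli1. Shh, the ligand of the posterior limb margin, had 6 pSmad1/5 and 5 Smad4 peaks within 10 kb, with the closest summits 52 bp apart, and no overlap.

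For the other signalling lists the intervals include 6.07%. Wnt ligands had 4 of 19 genes with a shared site (21.1%, 6.05 to 45.6%), an interval that only just includes 6.07%. The site of Wnt7b, a ligand of limb ectoderm, lay 71 bp outside the gene (4.34 and 3.94), that of Wnt3a 8698 bp after its start (4.21 and 5.10), that of Wnt8a inside the gene, and that of Wnt2b 6386 bp before its start. Wnt receptors and effectors had 2 of 28 (Fzd8 and Fzd9), Wnt antagonists and feedback genes 2 of 26 (Lgr5 and Kremen2), and the Notch list 2 of 24 (Notch1 and Lfng). TGF-beta ligands and targets had 2 of 19 (Tgfb1 and Ltbp4), both with the site outside the gene. Fgf ligands had 1 of 22, Fgf11, with 2 sites, and Fgf receptors and feedback genes 0 of 20, which allows up to 16.8%, although 8 of the 20 had both antibodies.

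Limb patterning regulators had shared sites at 7 of 51 genes (13.7%, 5.70 to 26.3%). Sp6, Sp8 and Sp9, zinc finger genes known in the apical ridge, each had a site, inside Sp6, 9451 bp outside Sp8 (3.80 and 5.35) and 7359 bp before the start of Sp9 (3.52 and 4.06). Tfap2a and Tfap2c, known in surface ectoderm, both had a site inside the gene, and that of Tfap2c had scores of 5.91 and 3.32. Tbx5, which marks the forelimb, had one 1415 bp inside a gene end (3.01 and 4.24), where the pSmad1/5 peak was only 11 bp wide. Lmx1b, the dorsal determinant, had one 4185 bp outside the gene (3.48 and 3.97). Of 39 Hox genes, 20 had both antibodies and 1, Hoxb1, had a shared site (0.0649 to 13.48%, which includes the 6.07% of all genes).

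Polycomb and Trithorax genes had shared sites at 7 of 35 genes (20%, 8.44 to 36.9%), a share close to that of Wnt ligands, and 23 of the 35 had both antibodies. The third-best ranked shared site of the genome (chr15:79973887-79973944) lay 2782 bp outside Cbx7, a reader of the Polycomb mark, with scores of 8.67 and 10.1. Besides Asxl2 (3.37 and 5.24), printed above, Jarid2, Kdm2b, Pcgf1 and Phc2 had a site inside the gene. The site counted for Ash1l lay inside its neighbour Rusc1.

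Among the lists of limb tissues, cartilage and joint had 4 of 30 genes (Ihh, Sox5, Wwp2 and Sox9) and bone 3 of 22 (Runx3, Col1a1 and Dlx3). Skin and ridge had 3 of 23 (Dlx3, Sp6 and Sp8) and nerve 3 of 16 (Egr2, Ngfr and Sox10). The sites counted for Col1a1 and Sox10 lay 7058 and 5096 bp outside these genes. That counted for Egr2 lay inside its neighbour Ado, 6360 bp from Egr2. Endothelium had 1 of 22 (Egfl7), blood 1 of 19 (Csf1r) and muscle precursors 0 of 22, which allows up to 15.4%. The site counted for Csf1r lay inside its neighbour Hmgxb3, 852 bp from Csf1r. The remaining lists were the extracellular matrix with 1 of 24 (Fbn2), Smad co-factors with 3 of 33 (among them Runx3 and Sin3a) and the cell cycle with 3 of 41 (E2f4, Cdkn1a and Ccnd3). The sites counted for Sin3a, E2f4 and Ccnd3 lay 2707, 8140 and 1743 bp outside these genes. At Cdkn1a, a brake on the cell cycle, the site lay 1820 bp after a start with scores of 3.79 and 3.60. The intervals of all these lists include 6.07%, as did those of the lists above except hedgehog and Polycomb genes.

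**Figure D4:**
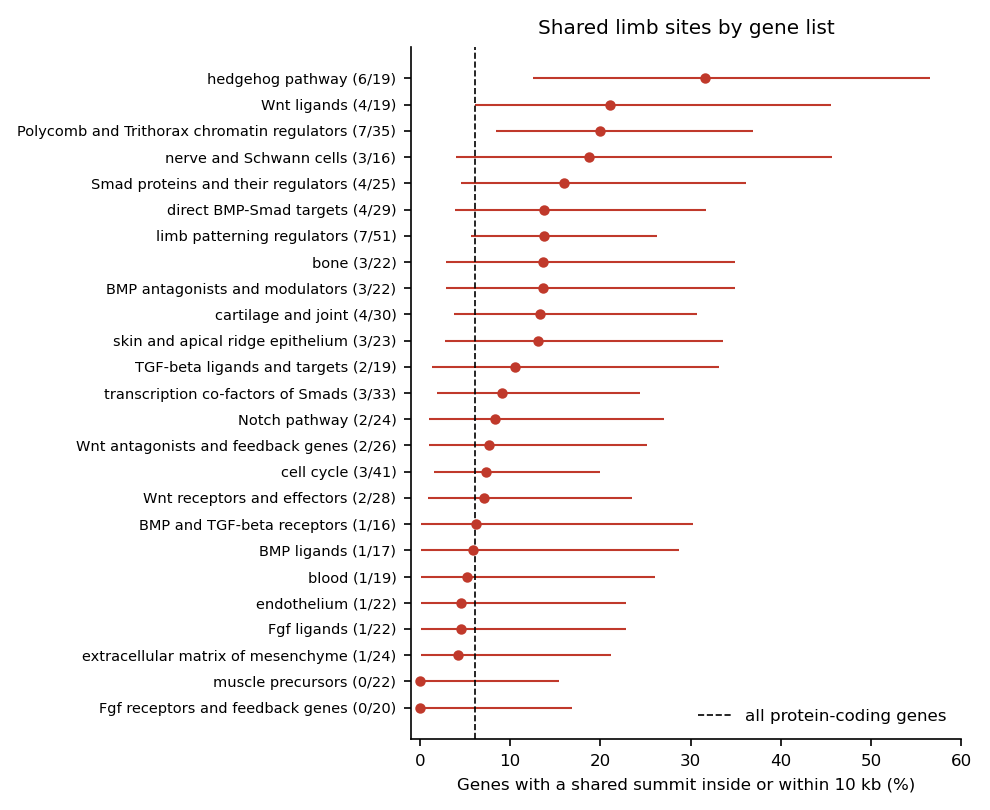
Share of the genes of each list with a shared summit inside or within 10 kb (horizontal axis, %), with exact 95% intervals; the dashed line is the 6.07% of all protein-coding genes. Hedgehog genes (6 of 19) and Polycomb and Trithorax genes (7 of 35) have intervals above the line, and Fgf receptors and muscle precursors have no gene with a shared site.

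At 3 other distances the share of list genes was also the higher one, without a test. A shared summit within 1 kb of or inside the gene was found for 44 of the 586 list genes (7.51%) and for 4.23% of all genes, and within 1 kb of either end for 19 (3.24%) and 2.25%. Within 50 kb it was found for 90 (15.4%) and 12.7%. The summits of an overlapping pair lay in the promoter window of 1 of 401 list genes with a window (0.249%, 0.00631 to 1.38%). For all genes with a window the share was 0.687%. Windows with both summits on different bases were not counted here. The interval of the list genes includes the share of all genes.

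By family, nuclear receptor genes had shared sites at 8 of 43 genes (18.6%, 8.39 to 33.4%) and 12 sites. Rxra, the common partner of many nuclear receptors, had 4 of them, with 11 pSmad1/5 and 24 Smad4 peaks within 10 kb. Its strongest shared site had scores of 5.31 and 4.38, 8653 bp outside the gene. Rara had 2 pSmad1/5 peaks on 1 Smad4 peak, inside the gene (5.50 and 4.51 against 4.36), and the site of Ppard lay 6 bp inside the gene (4.31 and 3.62). Nkx genes had 4 of 14 (8.39 to 58.1%), with a site inside Nkx2-1 (5.81 and 4.66) and 3 around Nkx1-1. Eph and ephrin genes had 5 of 22 (7.82 to 45.4%), with 2 sites at Efna2, 74 bp before its start and 480 bp outside it. Fox genes had 7 of 44 (6.64 to 30.1%) and Sox genes 4 of 19 (6.05 to 45.6%). The families named here are a selection from 40, made with their values known, and no difference was tested. Sox11 had a site 242 bp before its start (4.11 and 4.68). Against the 6.07% of all genes, the share of olfactory receptors was lower (2 of 1106, 0.181%, 0.0219 to 0.652%, both counted from 1 site). For ribosomal proteins (2 of 80, 0.304 to 8.74%) and Zfp zinc finger genes (19 of 394, 2.93 to 7.43%) the interval includes 6.07%. Olfactory receptor genes also had few peaks of either kind, with both antibodies at 6 of the 1106.

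Many genes had several peaks of each antibody without a shared site. Of 1839 protein-coding genes with at least 3 peaks of each within 10 kb, 1294 (70.4%) had none, and of the 80 list genes among them 54 (67.5%, 56.1 to 77.6%), an interval that includes 70.4%. Runx2, the regulator of bone formation, had 12 pSmad1/5 and 5 Smad4 peaks, with the closest summits 202 bp apart. Bmp7 had 7 and 8, with the closest summits 137 bp apart, and Jag2 7 and 7 at 166 bp. At Prdm16, with 3 and 22, and Maml3, with 12 and 9, the closest summits were 1672 and 3169 bp apart. Col5a1 (5 and 12), Pmepa1 (10 and 6) and Zbtb16 (7 and 8) also had none.

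The best ranked shared sites were mostly away from starts. Ranked by the worse of its ranks in both lists, the first was a site on chromosome 17 (chr17:13552090-13552136) with scores of 12.2 and 13.51, 164314 bp from the nearest gene end, that of Tcte2. The p-value that the authors' peak caller gave its pSmad1/5 peak, 0.000185, was also above the median of pSmad1/5 peaks without Smad4 (7.75e-05). Smo and Cbx7 followed. The fourth lay inside Eps8, a signalling adaptor gene, with scores of 8.27 and 16.5, the highest Smad4 score of any shared site. The next lay inside Copg2 (8.42 and 9.30), 3342 bp outside Mid1 on X (6.83 and 9.74), near Gm40369 and near Srd5a2. The Anxa9 promoter was the ninth (5.60 and 6.997), where the pSmad1/5 summit lay 145 bp before the start of Anxa9 and 135 bp after that of Cers2. A site 7097 bp outside Poll was also among the best 12. None of these 12 overlapped a molar peak, and of all 1134 shared sites only 71 (6.26%) overlapped a peak of either molar list.

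The fourth comparison asks where shared sites gather. When summits within 50 kb of each other were joined, 226 shared sites (19.9%) fell in chains of 2 or more and 64 (5.64%) in the 17 chains of 3 or more. The longest chain held 6 sites over 98850 bp on chromosome 15, from Ccdc166 to Puf60, with 2 at Scrib, a cell polarity gene, and 2 at Puf60. Between its outer pSmad1/5 summits lay 17 pSmad1/5 and 21 Smad4 summits, the outer ones included. The promoter table gave no start near this stretch, so the distance of the 6 sites from starts could not be read. Their pSmad1/5 scores ran from 3.20 to 3.86. The second chain, of 5 sites over 43260 bp, lay wholly inside Arhgef7, an exchange factor gene for small GTPases. There 9 pSmad1/5 and 6 Smad4 peaks were listed, and none of the 5 sites lay within 1 kb of a start in the promoter table.

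**Figure D5:**
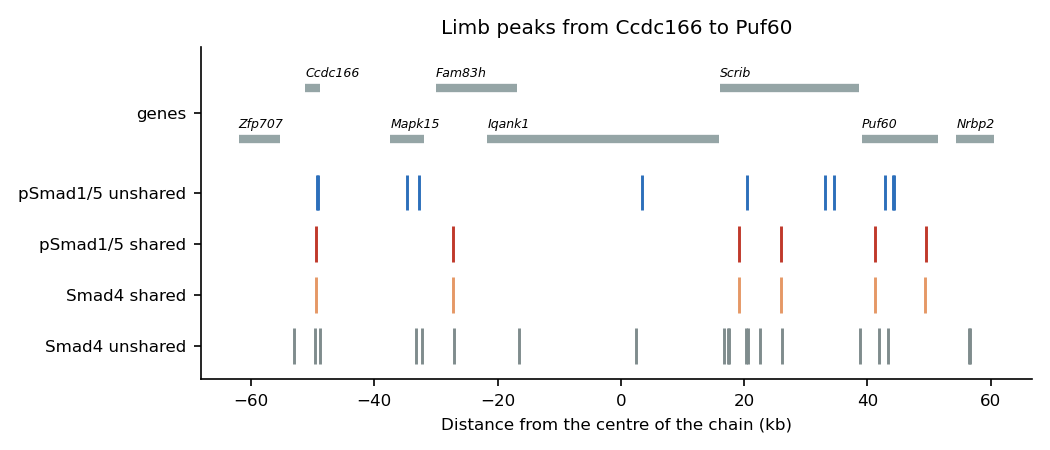
Map of the chain with the most shared sites, with distance from its centre on the horizontal axis (kb), genes as bars and peaks as ticks by class. The stretch from the first to the last shared pSmad1/5 summit holds 17 pSmad1/5 and 21 Smad4 summits. The Smad4 summit of the first of the 6 pairs lies just outside it, and the map also shows other Smad4 peaks beyond it.

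Of the 8 chains of 4 sites, the chain from Prdx5 to Fkbp2 on chromosome 19 was the only one with all 4 within 1 kb of a start (at Trmt112, Kcnk4, Bad and Fkbp2). The chain from Aars2 to Mymx on chromosome 17 and that from Vars to Ddah2 had 2 each at starts. The others ran from Apc2 to Plk5 and from Klf16 to Btbd2 on chromosome 10, from Kcnn1 to Map1s on chromosome 8 and from Glp1r to Umodl1 on chromosome 17, and the last lay on Y. Most of these stretches are dense in genes, up to 11 in the chain at Prdx5. Among chains of 3, all sites of the chain between Pigp and Ttc3, genes on opposite sides of a common start region, lay within 704 bp. A chain of 3 had the paired box gene Pax2 as its nearest gene, with 1 of the 3 inside or within 10 kb of it, and another had the homeobox gene Nkx1-1, with all 3 within 10 kb. Gse1, a gene 352883 bp long, had 4 shared sites among 51 pSmad1/5 and 46 Smad4 peaks, against 5 at Arhgef7 among 12 and 13 within 10 kb. Of 1005 microRNA hairpins, 74 lay within 1 kb of a pSmad1/5 summit and 4 (Mir3089, Mir7229, Mir6392 and Gm51271) within 1 kb of a shared one, beside the 4.85% of all pSmad1/5 peaks that were shared.

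The last comparison sets the shared limb sites against the molar lists, which the rule did not use. Shared sites recurred in the molar pSmad1/5 list more often than other limb pSmad1/5 peaks did. Of the 1134 sites, 64 (5.64%, 4.37 to 7.15%) overlapped a molar pSmad1/5 peak, against 334 of 22255 (1.501%, 1.35 to 1.67%). Limb Smad4 peaks without pSmad1/5 overlapped one in 613 of 28616 (2.14%, 1.98 to 2.32%), a higher share than that of other limb pSmad1/5 peaks. Within 1 kb of a gene end the shares of shared and other limb pSmad1/5 peaks were 44 of 444 (9.91%) and 138 of 3021 (4.57%). Elsewhere they were 20 of 690 (2.90%) and 1.02%, so the difference was present in both settings. For limb Smad4 peaks without pSmad1/5 the shares were 5.95% near a gene end and 1.35% elsewhere. Overlap with the molar Smad4 list was found for 7 shared sites (0.617%, 0.249 to 1.27%) and 0.404% of other limb pSmad1/5 peaks, which the interval includes. No shared site overlapped peaks of both molar lists, which allows a share of up to 0.325%. Sites that recurred in the molar pSmad1/5 list lay at Wnt2b, Fgf11, Jarid2, Pcgf1, Nr6a1, Pax2 and Foxn4 and, inside Rragb, near Foxr2, among list and family genes. The part of the greater width of shared peaks in this difference was not tested. With a score of at least 4 in all lists, 3 of 195 shared sites (1.54%) and 0.568% of other limb pSmad1/5 peaks overlapped a molar pSmad1/5 peak.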

How the data were processed

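Limb chromatin of stage E13.5 was precipitated with 2 antibodies, 1 library each. The peak lists were deposited by the authors, with BCP_TF as the peak caller per the labels, on mm10 per the submitters' processing notes, which also name bcl2fastq, Bowtie2, SAMtools, bedtools and deepTools. Each deposited list gives an enrichment score, a p-value, a length and a summit per peak. No source used here says whether inputs served as controls. The lists hold no reads, so depth is unknown. Read duplicates or problem regions could move peak numbers.

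Overlap, distances, chains and counts were computed with Python 3.11.15, numpy 2.4.6, pandas 2.3.3 and scipy 1.17.1 (figures with matplotlib 3.10.9), and checked on simulated data. Genes, starts and promoter sequences came from RefSeq GRCm38.p6. No genome was used, so sequences outside promoter windows were not read and exons were not separated. The 25 lists, the 40 families and the comparison itself were chosen with earlier results of these data known. Named genes are those at the 12 best ranked shared sites, list and family members with a shared site, genes of chains of 3 or more, promoters with both summits, and list genes with 3 or more peaks of each antibody and no shared site. Alternatives changed the overlap rule, the score, p-value and width limits, the distances, the gene set, the chaining distance and the promoter rule. Some genes within this rule are not reported here.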

Additional observations from a re-analysis of the deposited data

How the results depend on the processing

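No paired analysis was possible because each antibody had 1 library and no test was run. Of 38 alternatives, 14 left the value within its interval or within 1.5 times the count, 22 moved it and 2 turned the order of the shares compared.

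The share of pSmad1/5 peaks that were shared was 3.44% with at least 50% of the shorter peak covered, 5.93% with summits within 100 bp, 8.42% with peaks within 100 bp, 4.09% with a score of at least 4 and 3.87% with a deposited p-value under 1e-05. The share of Smad4 peaks was 2.70%, 4.71%, 6.75%, 2.57% and 2.60% in the same order. The excess of shared over other pSmad1/5 peaks near gene ends, 25.6 percentage points, was 20.8 at 500 bp, 28.6 at 5 kb, 22.1 with summits within 100 bp and 30.2 among wide peaks. For starts only, added after the data were seen, it was 21.97 (31.7% and 9.78%). Here peaks on chromosome 18 stayed in the totals as not near a start, unlike in the start shares given above. The score difference of 0.26 was 0.35 among wide pSmad1/5 peaks.

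List genes with a shared site fell from 61 to 19 at 1 kb of either end and to 7 with a score of at least 4. Chains of 3 or more rose from 17 to 29 when joined within 100 kb, and none was left with a score of at least 4, a limit added after the data were seen. Overlap with molar pSmad1/5 was 10.8% within 100 bp and 1.54% with a score of at least 4, and with molar Smad4 0% at that score, below the 0.153% of other peaks. The direction of the position, score and molar pSmad1/5 differences held in all these settings, while in GC-rich windows the GGCGCC share in promoters with a pair (33.7%) turned below that with neither (36.4%). Depth is unknown, so no site can be called unbound.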
